A study of Mus musculus with 2 samples.

Results

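Transcripts of the nuclear-encoded subunits of mitochondrial respiratory complexes I to V were compared between 2 arrays of an engineered mouse embryonic stem cell line. Members were the genes with the symbols Ndufa, Ndufb, Ndufc, Ndufs or Ndufv followed by a number (complex I), Sdha to Sdhd (complex II), Uqcr forms and Cyc1 (complex III), Cox4 to Cox8 forms (complex IV) and Atp5 forms (complex V). Assembly factors were left out. The rule gave 82 genes of the 19938 that had a probeset of their own, namely 35 for complex I, 4 for complex II, 9 for complex III, 17 for complex IV and 17 for complex V. The rule uses symbols only and no measured value, but it was chosen with earlier results of these data known.

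The line, i-OSKM-ESC, was made on a 129 strain background from KH2 embryonic stem cells and carries, on both arrays, transgenes for Oct4, Klf4, c-Myc and a tagged Sox2 that depend on doxycycline. The plus doxycycline array held RNA of cells given 4 µg/mL of the drug and collected 24 hours later. The no doxycycline array held RNA of cells that were refed with medium lacking the drug, also with a time of 24 hours. Each condition has 1 array of 1 cell line, so the differences below have no error between replicates and no p-value. Tetracyclines are known to slow protein synthesis on mitochondrial ribosomes, and no array of drug-treated cells lacking the transgenes was analysed here, so the drug and the factors cannot be told apart. In bulk RNA, a change in the share of a kind of cell and a change per cell cannot be told apart either.

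The respiratory chain sits in the inner mitochondrial membrane. Complexes I and II pass electrons from NADH and succinate to coenzyme Q, complex III passes them to cytochrome c and complex IV to oxygen, while complexes I, III and IV pump protons whose return through complex V drives ATP synthesis. Most subunits are encoded in the nucleus and a few in mitochondrial DNA. Naive mouse embryonic stem cells are known to use both oxidative phosphorylation and glycolysis.

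Values are log2 RMA values, and a difference is plus minus no doxycycline on that scale. All 7 embryonic stem cell markers examined passed the expression filter, which asks that the higher of a gene's 2 values reach the median of all values (6.48). Their median difference was -0.44, a wider shift than the median of any complex below. Of the 7, 6 were negative (55.5% of all genes passing the filter) and 5 at least 1.2-fold lower (18.7% of all genes passing the filter). The highest and the lowest of the 7, Pou5f1 and Sox2, are also induced factors, so their values count in both groups. Tdgf1 and Dppa5a, a coreceptor gene and an RNA-binding protein gene of pluripotent cells, had -0.73 and -0.52. Of the induced factors, Pou5f1, which encodes Oct4, Klf4 and Myc had differences between 0.35 and 0.43, and Sox2 had -1.01, so the factors do not settle which array had the drug and every direction here rests on the array labels. Of the fibroblast or feeder markers 6 of 7 had positive differences, against 10291 of all 19938 genes, with a median of 0.27. The filter was passed by 4 of 7, with 3 positive differences and 1 negative among them. Of all genes passing the filter, 44.4% were positive. The 7 ranged from 3.63 to 7.61 on the plus doxycycline array and from 3.38 to 7.22 on the no doxycycline array. Summed on the linear scale, these 7 gave 676.3 with doxycycline and 544.5 without, and the embryonic stem cell markers gave 23195 with doxycycline and 29482 without. RMA gives no value of 0, so no marker could be called absent, and the part of other cells, or of the shift in the stem cell markers, in the results was not tested.

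The promoters of the subunit genes are shown first, as a feature that the choice of the genes did not use. RefSeq promoter windows of 300 bases (GRCm38.p6) were found for 66 of the 82 genes, 71 windows in all. Both strands were searched for the NRF1 core (GCGCATGCG), YY1 (AAGATGGCG), the ETS core (CCGGAAG) bound by GABP among others, and a TATA box (TATAAA). None of these words contains another, and the words and the windows printed were chosen after the members' values were seen. The NRF1 word occurred in 8 of the 71 member windows (11.3%), against 2.32% of the 21191 windows of other protein-coding genes and 1.75% of all 32851 windows. A first search used an NRF1 word with 1 more C at its end, which occurred in 5 member windows (7.04%) against 1.31% of the other protein-coding windows, and the shorter word was adopted after these shares were seen. The YY1 word occurred in 7 (9.86%), against 1.81% of the other protein-coding windows and 1.40% of all windows, and the ETS word in 17 (23.9%), against 11.5% and 8.86%. The TATA box occurred in 12.7% of member windows, against 12.6% of other protein-coding windows and 13.6% of all. Member windows held a median of 19 CG dinucleotides, against 13 over all protein-coding windows. These shares were not tested, and a match is a description of the sequence that does not show that a factor binds there.

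**Figure D1:**
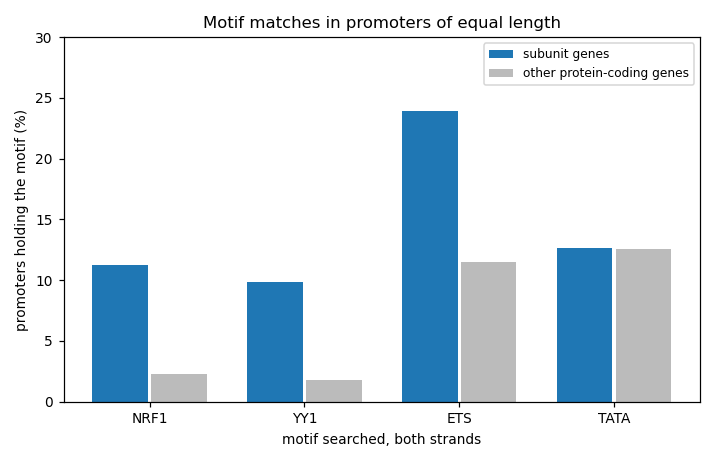
Share of promoter windows that hold each searched motif (vertical axis, percent; both strands) for subunit genes (blue, 71 windows) and for other protein-coding genes (grey, 21191 windows). The shares for NRF1, YY1 and ETS were higher in the subunit genes (11.3%, 9.86% and 23.9%, against 2.32%, 1.81% and 11.5%) and the TATA box was at 12.7% against 12.6%.

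Windows of 5 genes are printed in full 5′ to 3′ on the strand of the gene, with searched motifs in capitals. Cox6a1 (chr5:115348909-115349208, minus strand) and Atp5k (chr5:108434350-108434649, minus strand) are shown because both hold an NRF1 word and, downstream of it, an ETS word on the reverse strand, although their differences had opposite signs (-0.33 and 0.22). Ndufa9 (chr6:126849095-126849394, minus strand) shows the YY1 word. Cox7a1 (chr7:30183921-30184220, plus strand), the member with the largest difference, and its widely expressed paralogue Cox7a2 (chr9:79759804-79760103, minus strand) hold none of the 4 words, and their windows contain 7 and 20 CG dinucleotides.
Cox6a1: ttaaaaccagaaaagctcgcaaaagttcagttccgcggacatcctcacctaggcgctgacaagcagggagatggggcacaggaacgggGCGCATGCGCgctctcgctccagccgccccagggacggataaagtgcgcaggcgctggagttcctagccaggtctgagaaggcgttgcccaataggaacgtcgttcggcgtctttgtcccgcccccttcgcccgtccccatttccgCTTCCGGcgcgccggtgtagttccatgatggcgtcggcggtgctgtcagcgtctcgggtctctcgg
Atp5k: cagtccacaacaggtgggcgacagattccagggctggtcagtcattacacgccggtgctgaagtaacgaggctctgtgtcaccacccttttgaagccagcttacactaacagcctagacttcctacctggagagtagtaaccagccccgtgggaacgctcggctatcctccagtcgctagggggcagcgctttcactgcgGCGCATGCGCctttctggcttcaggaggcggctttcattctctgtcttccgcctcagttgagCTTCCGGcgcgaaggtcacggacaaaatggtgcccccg
Ndufa9: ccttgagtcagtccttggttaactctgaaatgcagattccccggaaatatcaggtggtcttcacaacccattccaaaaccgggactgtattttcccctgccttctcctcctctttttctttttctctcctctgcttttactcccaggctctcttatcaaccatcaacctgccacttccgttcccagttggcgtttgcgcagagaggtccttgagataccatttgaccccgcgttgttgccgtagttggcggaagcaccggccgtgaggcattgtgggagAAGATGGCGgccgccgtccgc
Cox7a1: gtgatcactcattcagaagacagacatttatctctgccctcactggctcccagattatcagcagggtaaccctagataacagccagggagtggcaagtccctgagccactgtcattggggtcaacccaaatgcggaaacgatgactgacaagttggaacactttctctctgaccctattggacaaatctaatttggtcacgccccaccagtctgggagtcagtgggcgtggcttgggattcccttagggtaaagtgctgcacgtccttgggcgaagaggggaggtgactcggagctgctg
Cox7a2: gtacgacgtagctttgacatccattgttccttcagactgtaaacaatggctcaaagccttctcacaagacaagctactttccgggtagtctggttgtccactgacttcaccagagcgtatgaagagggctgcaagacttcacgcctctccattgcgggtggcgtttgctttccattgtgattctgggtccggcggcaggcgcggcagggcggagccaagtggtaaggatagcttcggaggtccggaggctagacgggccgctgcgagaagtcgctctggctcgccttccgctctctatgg

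Carrying a word did not go with 1 direction of difference between the arrays. The 8 genes with an NRF1 word were Cox6a1 (-0.33), Ndufa8 (-0.14), Atp5g2 (-0.13), Atp5l (-0.12), Ndufa11 (-0.02), Uqcr11 (0.10), Uqcrc1 (0.11) and Atp5k (0.22). Their median was -0.07, against -0.04 for the 58 genes with a window but no such word. The 17 genes with an ETS word had a median of -0.08, against -0.03 for the other 49, and the 7 with a YY1 word had -0.03, against -0.04 for the other 59. These medians describe the genes and were not tested.

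The subunit genes as a group were at nearly the same level on both arrays. Over the 82 members the median difference was -0.02, and 34 differences were positive and 48 negative. Over the 11191 genes passing the filter the median was -0.03, and the difference was negative in 55.5% and positive in 44.4%. The filter was passed by 78 members, with 46 negative differences among them, and the other 4 were Ndufa4l2, Cox7b2, Cox6a2 and Cox8b. Of the 78, 0 were at least 2-fold higher or lower, against 0.92% and 0.768% of all genes passing the filter. At least 1.5-fold, 0 were higher (3.24% of all genes) and 1 was lower (3.8% of all genes), which was Cox7a1.

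Even at 1.2-fold few members stood out. Among the 78, only Cox8c was at least 1.2-fold higher (13.5% of all genes), with a no doxycycline value below the filter, and Cox7a1, Cox6a1, Ndufb2 and Ndufa2 were at least 1.2-fold lower (18.7% of all genes). After quantile normalization of the columns, and likewise after removal of the trend with mean expression, the split was 3 higher and 3 lower, because Atp5k and Ndufv3 joined the higher genes and Ndufa2 left the lower ones. Subunit probesets are bright, and bright genes differ less on these arrays. Of the 63 members in the brightest 5 of 20 expression bins, 0 were higher and 2 lower by 1.2-fold or more, against 9.19% and 15.2% of the 4984 genes in those bins. The robust SD of the differences in those bins was 0.151 for the members and 0.202 for all genes, and neither is an error between cultures. The match in brightness is loose, since many members lie in the single brightest bin. There the robust SD of all genes was 0.166, and 89 of 996 genes were higher and 81 lower by 1.2-fold or more.

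**Figure D2:**
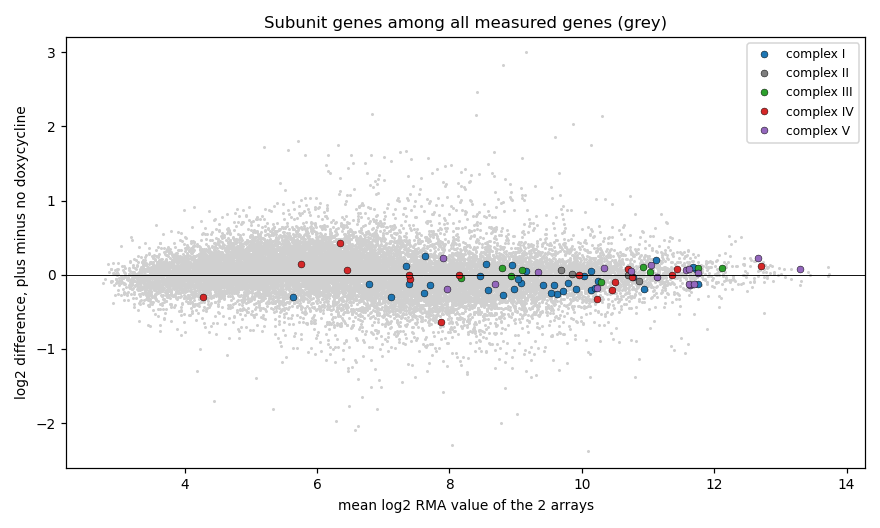
Difference between the arrays (vertical axis, log2, plus minus no doxycycline) against the mean log2 RMA value of the arrays (horizontal axis), for all 19938 genes (grey) and the 82 subunit genes (coloured by complex). The subunit genes lie along 0 with Cox7a1 (-0.64) lowest and Cox8c (0.43, with 1 value below the filter) highest, while the grey points spread further.

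Complex I was the complex with the lowest median, at -0.12 over 35 genes, and 26 of its differences were negative (25 after quantile normalization, 23 after trend removal). Among the 34 that passed the filter 25 were negative, against 55.5% of all genes passing the filter. Relative to the median of genes of like mean expression the complex I median was -0.09, with 23 of 35 below that of their bin. Complexes II, III and V had medians of 0.0062, 0.07 and 0.04, and complex IV had -0.0085. Differences ranged from -0.30 to 0.25 in complex I and from -0.09 to 0.11 in complex III, so these complexes overlapped. The robust SD of the differences was 0.143 in complex I and 0.246 over all genes passing the filter. The difference between the complexes was not tested, since the genes of 1 complex on 2 arrays are not replicates.

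**Figure D3:**
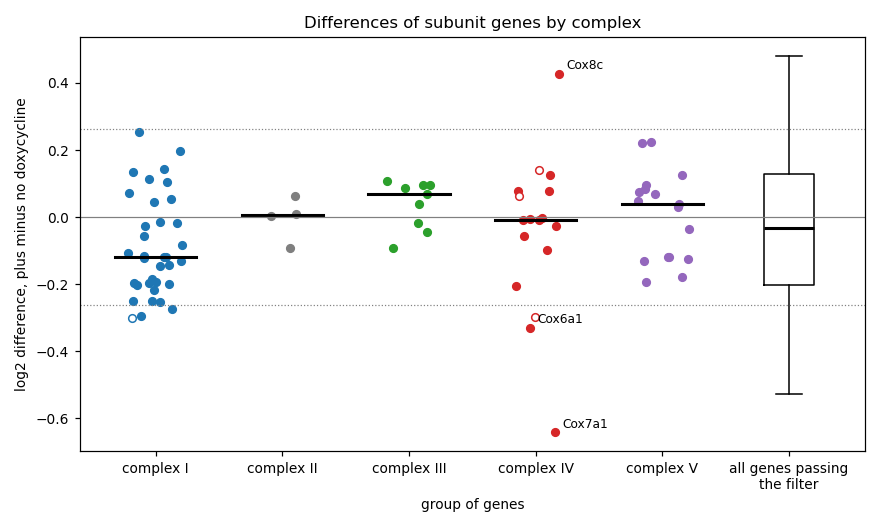
Difference of each subunit gene (points; vertical axis, log2, plus minus no doxycycline) by complex, with the median as a bar, open points for genes below the expression filter, and dotted lines at 1.2-fold. The box gives the median, quartiles and 5th to 95th percentiles of the 11191 genes passing the filter; the bar of complex I is at -0.12 and that of complex III at 0.07.

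Within complex I, the NADH dehydrogenase, the catalytic core subunits carry the flavin and iron-sulfur clusters, and the accessory subunits surround them. Ndufv1, which binds the flavin and NADH, had 9.61 with doxycycline and 9.83 without, a difference of -0.22. Ndufv2, an iron-sulfur subunit next to it, had 11.22 with doxycycline and 11.03 without, a difference of 0.20, so these neighbours in the enzyme differed in sign. Of the other core subunits, Ndufs8, Ndufs1 and Ndufs3 had -0.20, -0.12 and -0.08, and Ndufs7, which lies near the coenzyme Q site, had 0.07. The 6 core subunits measured had a median of -0.10, and the 29 other genes with a complex I symbol, Ndufa4 and Ndufa4l2 included, had -0.12. This split was made after the values were seen.

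Among the accessory subunits, the Ndufb genes, most of which encode parts of the membrane arm, had a median of -0.20 over 9 genes. Of the 9 differences 8 were negative, against 55.5% of all genes passing the filter. Relative to genes of like mean expression the Ndufb median was -0.14, with 8 of 9 below that of their bin. Ndufb2 had 6.98 with doxycycline and 7.27 without (-0.30). Ndufb5 followed at -0.25, Ndufb7, Ndufb6 and Ndufb8 at -0.20, Ndufb11 at -0.18, Ndufb3 at -0.14 and Ndufb10 at -0.12, and Ndufb9 was the exception at 0.04. The 9 genes lie on 9 different chromosomes, and 8 differences stayed negative after quantile normalization and after trend removal. The 14 Ndufa genes had a median of -0.12, with 11 negative (10 after quantile normalization, 9 after trend removal). Relative to genes of like mean expression the Ndufa median was -0.06, with 9 of 14 below that of their bin. Ndufa2, a subunit of the NADH-oxidising arm, had 8.67 with doxycycline and 8.95 without (-0.28). Ndufa13, also known as GRIM-19, and Ndufa1, an X-linked subunit, each had -0.25, Ndufa9 had -0.19, Ndufa8 -0.14, Ndufa7 -0.11, Ndufa10 -0.03, Ndufa11 -0.02 and Ndufa6 -0.01. On the other side of 0, Ndufa12 had 8.62 with doxycycline and 8.48 without (0.14), Ndufa3 had 0.14 and Ndufa5 0.11.

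The remaining complex I genes were mixed in sign. Ndufv3, an accessory subunit of the flavoprotein part, had the highest difference of the complex, with 7.76 with doxycycline and 7.50 without (0.25). Ndufs4, whose loss in mice gives a model of Leigh syndrome, had 0.11 and Ndufs6 0.05, whereas Ndufs5 had -0.12. Both Ndufc genes were slightly lower, Ndufc2 at -0.12 and Ndufc1 at -0.06. Ndufa4 carries a complex I symbol but is now counted as a subunit of complex IV. It had 9.52 with doxycycline and 9.65 without (-0.13), and its paralogue Ndufa4l2, a known hypoxia-inducible gene, had 5.49 and 5.79 (-0.30), below the filter on both arrays. Ndufab1, the acyl carrier protein of complex I, falls outside the rule and was named after its value was seen. It had 9.04 with doxycycline and 9.26 without (-0.21).

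**Figure D4:**
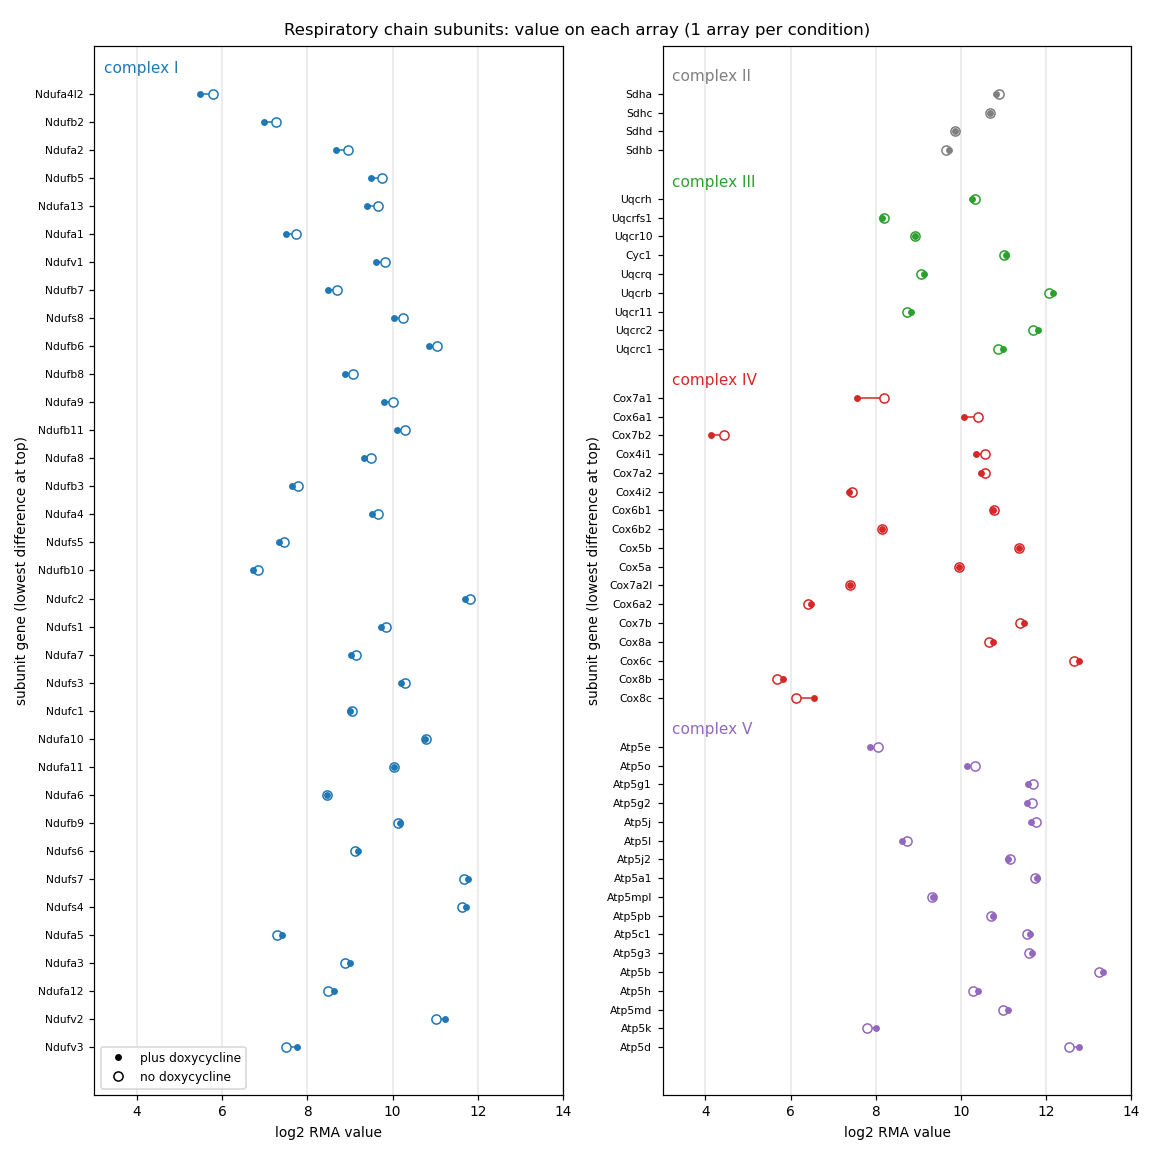
Value of every subunit gene on the plus doxycycline array (filled point) and on the no doxycycline array (open point) as log2 RMA values (horizontal axis), ordered within each complex by the difference. The points of a gene nearly coincide for most genes, and the widest gap is that of Cox7a1 (7.55 with doxycycline, 8.19 without); positions of different genes are not comparable as amounts, since probes differ in brightness.

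Complex II, succinate dehydrogenase, had the narrowest spread of the complexes. Sdha, the flavoprotein that oxidises succinate, had 10.81 with doxycycline and 10.90 without (-0.09). Sdhb, the iron-sulfur subunit, had 9.72 with doxycycline and 9.66 without (0.06). The membrane anchors Sdhc and Sdhd had 10.69 and 9.86 with doxycycline against 10.69 and 9.85 without, with differences of 0.0021 and 0.01. The 4 genes thus stayed between -0.09 and 0.06.

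Complex III, the cytochrome bc1 complex, leaned the other way from complex I, with 6 of 9 differences positive and 8 of 9 above the median of genes of like mean expression. Of all genes passing the filter, 44.4% had positive differences. The core proteins Uqcrc1 and Uqcrc2 had 10.98 and 11.80 with doxycycline, against 10.87 and 11.70 without, which gave 0.11 and 0.10. Cyc1, which encodes cytochrome c1, had 11.05 with doxycycline and 11.01 without (0.04). Uqcrfs1, the Rieske iron-sulfur protein, had 8.15 with doxycycline and 8.19 without (-0.04). Of the small subunits, Uqcr11 had 0.10, Uqcrb 0.09 and Uqcrq 0.07, while Uqcr10 had -0.02 and the hinge protein gene Uqcrh had 10.25 with doxycycline and 10.34 without (-0.09). No gene of the complex reached 1.2-fold in either direction. Uqcrfs1 and Uqcr10 turned positive after quantile normalization or trend removal, which left 1 negative difference.

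Complex IV, cytochrome c oxidase, held Cox7a1, the member with the widest difference, and 8 of the 82 subunit genes encode isoforms that are known mainly from muscle, lung, testis or hypoxic cells. Cox7a1, the heart and skeletal muscle isoform of subunit VIIa, had 7.55 with doxycycline and 8.19 without, a difference of -0.64 or 1.56-fold lower. Its difference was between -0.58 and -0.56 under quantile normalization, trend removal or an offset of 32 on the linear scale, below 1.5-fold in each case. The widely expressed isoform Cox7a2 had 10.46 with doxycycline and 10.56 without (-0.10). Cox7a2l, which encodes a related protein of respiratory supercomplexes, had 7.39 on both arrays (-0.0017), but its 2 probesets had -0.18 and 0.18, so this mean hides a disagreement. Of 6 striated muscle markers 5 had positive differences, but 3 of these lay below the filter. Of the 3 above it Tnnt2 and Actc1 had 0.17 and 0.05 and Ckm, like Cox7a1, was negative (-0.24), none reached 1.2-fold, and 44.4% of all genes passing the filter were positive. For the 6, the summed linear level was 605.4 with doxycycline and 571.0 without.

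Cox8c, the testis isoform of subunit VIII, had 6.56 with doxycycline and 6.13 without, a nominal difference of 0.43. It passed the filter only through its plus doxycycline value. RMA values give no detection call, so whether its lower value exceeds background is not known. The size of this difference and its place above all other members are therefore not settled. Its paralogues Cox8a, the widely expressed isoform, and Cox8b, the heart and muscle isoform, had 10.74 and 5.82 with doxycycline, against 10.66 and 5.68 without (0.08 and 0.14). Male germ cell markers had 3 of 5 negative differences, against 9627 of all 19938 genes, and the 2 positive ones lay below the filter. Only Ddx4 (-0.33) and Dazl passed it, Dazl through its no doxycycline value alone (5.72 with doxycycline, 6.61 without). Of all genes passing the filter, 55.5% were negative. Summed linear levels of the 5 were 639.2 with doxycycline and 793.8 without. Of the other isoform pairs, Cox6a1, the widely expressed form of subunit VIa, had 10.07 with doxycycline and 10.40 without (-0.33), while its heart and muscle form Cox6a2 had 6.48 and 6.41 (0.06). Cox4i1, the common form of subunit IV, had 10.35 with doxycycline and 10.56 without (-0.21), and the lung and hypoxia-linked form Cox4i2 had 7.37 and 7.43 (-0.06).

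The rest of complex IV differed little. Cox6b1 and its testis form Cox6b2 had -0.03 and -0.01, and Cox5a and Cox5b had -0.0072 and -0.0085. Cox7b had 11.47 with doxycycline and 11.39 without (0.08), and its restricted form Cox7b2 had 4.13 and 4.43 (-0.30), both below the filter. Cox6c had 12.77 with doxycycline and 12.65 without (0.12). Without the isoforms of restricted expression, the 10 other genes of the complex had a median of -0.0078.

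In complex V, the ATP synthase, 10 of 17 differences were positive (9 by the brightest probeset), against 44.4% of all genes passing the filter. The F1 part, which makes ATP, is built of subunits alpha and beta in the head and gamma, delta and epsilon in the central stalk. Atp5d (delta) had 12.77 with doxycycline and 12.54 without, the highest difference of the complex (0.22). Atp5b (beta), Atp5c1 (gamma) and Atp5a1 (alpha) had 13.33, 11.61 and 11.78 with doxycycline, against 13.25, 11.54 and 11.75 without (0.08, 0.07 and 0.03). Atp5e (epsilon) had 7.87 with doxycycline and 8.06 without, the lowest of the complex (-0.19). The 5 F1 genes had a median of 0.07 and the 12 others, of the membrane part and peripheral stalk, 0.0019, a split also made after the values were seen.

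The genes Atp5g1, Atp5g2 and Atp5g3 encode the same mature subunit c, the proton-carrying ring, behind different mitochondrial import sequences. Atp5g1 had 11.57 with doxycycline and 11.70 without (-0.13), and Atp5g2 had 11.55 and 11.68 (-0.13). Atp5g3 had 11.66 with doxycycline and 11.59 without (0.07), so it differed in sign from the other 2. In the peripheral stalk, Atp5o, the oligomycin sensitivity protein, had 10.14 with doxycycline and 10.32 without (-0.18), Atp5j -0.12, Atp5pb 0.05 and Atp5h 0.10. Of the small membrane subunits, Atp5k (subunit e) had 8.01 with doxycycline and 7.79 without (0.22) and Atp5l (subunit g) 8.63 and 8.74 (-0.12), although both take part in dimers of the enzyme. Atp5md had 11.12 with doxycycline and 10.99 without (0.13), Atp5mpl had 0.04 and Atp5j2 had -0.03.

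Several probesets of 1 gene give the only repeat measurement on these arrays. Of the 82 members, 66 had 1 probeset and 16 had between 2 and 6. In 12 of the 16, all probesets had the same sign, among them the 6 of Atp5l (between -0.17 and -0.07), the 3 of Atp5g2 (between -0.16 and -0.08), the 3 of Uqcrb (between 0.07 and 0.10) and the 3 of Atp5md (between 0.10 and 0.16). Atp5pb, Cox5b, Cox7a2l and Ndufa11 had both signs. Among these members the probesets of a gene scattered around their mean with an SD of 0.0772. Over the 656 genes of any kind with several probesets above the filter, this SD was 0.145. Respiratory genes have many processed copies in the genome, and the annotation used here does not say which probesets read such copies, so agreement of probesets repeats the hybridisation and not the culture.

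**Figure D5:**
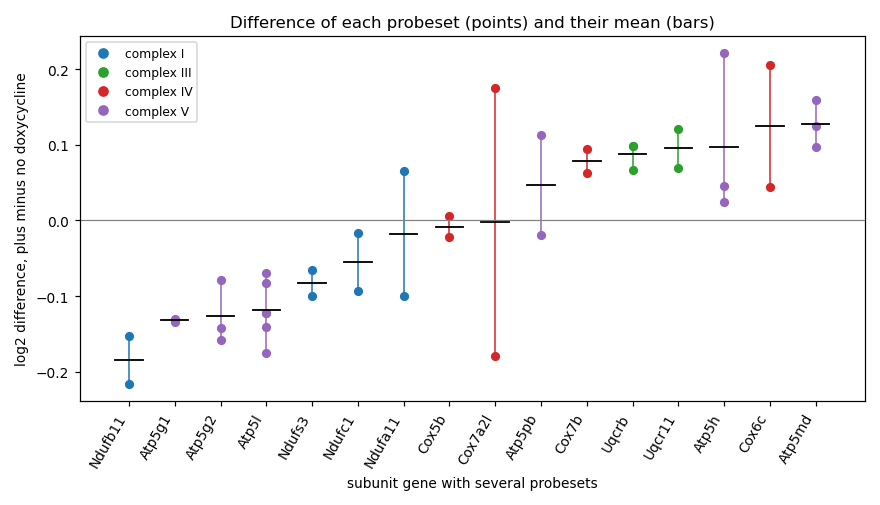
Difference of each probeset (points; vertical axis, log2, plus minus no doxycycline) for the 16 subunit genes with several probesets, with their mean as a bar and a line over their range. The points of Atp5l and Ndufb11 all lie below 0 and those of Uqcrb and Atp5md all above it, while the 2 of Cox7a2l are at -0.18 and 0.18.

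Some genes that fit the rule had no probeset of their own and are not among the 82. Cox7c, Ndufb4 and Ndufb4b are covered by probesets assigned to 2 genes each. The 3 probesets shared by Cox7c and Gm12338 had differences of -0.0085, -0.01 and 0.04, and the 2 shared by Ndufb4 and Ndufb4b had -0.01 and -0.02. A probeset shared by Ndufs5 and its pseudogene had 6.71 with doxycycline and 7.09 without (-0.39), against -0.12 for the probeset of Ndufs5 alone. The 13 mitochondrially encoded subunits had 0 probesets with a gene name of their own and were not analysed here.

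Genes that build, supply or regulate the chain were set beside it. Of 41 assembly factors measured, 39 passed the filter, with 4 higher and 4 lower by 1.2-fold or more (13.5% and 18.7% of all genes), and the median difference was -0.03. The widest were Coa7 (-0.54) and Coa5 (0.54), both of complex IV assembly, and Uqcc3 (-0.48), of complex III assembly. Of 12 citric acid cycle genes, all passing the filter, only Cs, which encodes citrate synthase, was at least 1.2-fold higher, with 10.90 with doxycycline and 10.59 without (0.31), and 0 were 1.2-fold lower. Suclg1 and Suclg2, subunits of succinyl-CoA ligase, followed at -0.17 and -0.14, and the median was -0.0079.

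Among 18 regulators of mitochondrial transcription and biogenesis that passed the filter, 2 were higher and 0 lower by 1.2-fold or more, against 13.5% and 18.7% of all genes passing the filter. Ppargc1b, a coactivator of respiratory gene transcription, had 7.20 with doxycycline and 6.59 without (0.61), and its partner, the nuclear receptor gene Esrra, had 7.60 and 7.30 (0.30). Lrpprc, which stabilises mitochondrial mRNAs, had 9.74 with doxycycline and 9.98 without (-0.24). The motif-binding factors Nrf1, Yy1 and Gabpa, named after their values were seen, had -0.16, -0.15 and 0.01. The list of 19 had a median of -0.03.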

How the data were processed

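The authors processed the arrays with Affymetrix Expression Console and RMA, per the submitters' processing notes, and deposited 1 log2 value per probeset and array for 35556 probesets. The sources used here give no version, genome build or probe design. RMA corrects background, aligns the arrays and summarises probes, so a shift shared by most transcripts would not show, and dim genes have compressed differences. The number of arrays (1 per condition) limits the precision.

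Probesets were named from the platform annotation, and 21789 had exactly 1 gene. A gene's value was the mean of its own probesets. The filter, 20 bins of mean expression and thresholds of 1.2-fold, 1.5-fold and 2-fold were applied to all genes. Genes of like mean expression are those of the same bin. Members, lists and thresholds were chosen with earlier results of these data known. Every member could be named; from each list, up to 3 genes with the widest difference among those passing the filter were named. Alternatives were quantile normalization, loess trend removal, an offset of 32, the brightest probeset, other filters and other memberships. The steps were tested on simulated data. Promoters came from RefSeq (GRCm38.p6). Tools were pandas 2.3.3 and NumPy 2.4.6 under Python 3.11.15, with matplotlib 3.10.9 for plots and statsmodels 0.14.6 for loess.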

Additional observations from a re-analysis of the deposited data

How the results depend on the processing

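No paired analysis was possible because each condition has 1 array, and for the same reason no replicate could be left out. The median of each complex moved by less than 0.05, a margin chosen after the values were seen, under every alternative run. It stayed between -0.12 and -0.08 for complex I, between 0.05 and 0.07 for complex III and between 0.01 and 0.04 for complex V. For complex IV it ranged from -0.01 to 0.01, positive only with quantile normalization, and for all subunits from -0.03 to 0.00036, positive only with the trend removed. The number of members at least 1.2-fold higher, 1 in the values as deposited, was 3 with quantile normalization, 3 with the trend removed and 0 with a filter at the 75th percentile. The number at least 1.2-fold lower, 4 as deposited, was 2 with the offset of 32 and 2 with that filter, and 6 with no filter. Cox7a1 was the 1 member at least 1.5-fold lower, and the count was 0 with quantile normalization, with the trend removed, with the offset and with the filter at the 75th percentile, which Cox7a1 did not pass. No member reached 2-fold under any of these settings. Keeping pseudogene symbols changed nothing, since none had a probeset of its own. Near the bottom of the scale, as for Cox7b2, whose difference was -0.11 with the offset, whether values exceed background is not known.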

Other observations

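Of 10 hypoxia-linked genes, not all of them mitochondrial, all had negative differences (9 of 10 by the brightest probeset). Negative differences were found in 9627 of all 19938 genes and in 55.5% of all genes passing the filter. Among the 8 hypoxia-linked genes above the filter 4 were lower by 1.5-fold or more, against 3.8% of all genes passing the filter. The list was chosen with earlier results of these data known, so these counts only describe it and were not tested. Of the 4, Bnip3, which acts in mitophagy, passed only through its no doxycycline value, with 6.01 with doxycycline and 7.81 without. Whether its lower value exceeds background is not known, so the size of its nominal difference (-1.80) is not settled. Egln3, an oxygen-sensing prolyl hydroxylase, had 7.52 with doxycycline and 8.57 without (-1.06), and Epas1, which encodes HIF-2 alpha, had 8.41 and 9.33 (-0.92). Pdk1, the kinase that restrains pyruvate dehydrogenase, was the other of the 4 and was named after its value was seen, with a difference of -0.65. Hif1a, named likewise, had -0.03. The respiratory members tied to hypoxia, Cox4i2 (-0.06) and Ndufa4l2 (-0.30, below the filter), were under 1.5-fold.

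Of 16 genes for electron carriers and coenzyme Q synthesis, all passing the filter, 1 was higher and 1 lower by 1.2-fold or more, against 13.5% and 18.7% of all genes passing the filter, with a median of -0.08. Coq10b, a coenzyme Q-binding protein gene, had 8.63 with doxycycline and 8.11 without (0.52), while its paralogue Coq10a had 7.58 and 7.81 (-0.23), so the pair differed in sign. Coq8a, of coenzyme Q synthesis, had 7.55 with doxycycline and 7.92 without (-0.37). Cycs, which encodes cytochrome c and was named after its value was seen, had 10.26 with doxycycline and 10.15 without (0.11).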
